A study of Homo sapiens with 4 samples.

Results

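OGN, OMD, ASPN, ECM2 and CENPP lie side by side on the long arm of human chromosome 9, and the values described here are theirs, 5 of the 11415 genes listed in the expression table. They were chosen by name and position, with earlier results of the same libraries known, so the contrast between the conditions is given for them as a description, and where their calls in a test over all genes are counted, the share of all genes called stands beside the count. The RNA came from TK6, a human lymphoblastoid cell line of B cell origin that is heterozygous at the thymidine kinase locus, which held for both conditions. The cells were seeded at 200000 cells per ml in High Aspect Ratio Vessels (HARV), a rotating bioreactor for suspension cultures, and kept for 48 hours. For simulated microgravity the vessel turned at 12 rpm (2 libraries), and for the static control it stood still (2 libraries). The labels speak of duplicates of cells without saying whether these were separate cultures, so p-values may measure only technical spread between libraries of 1 cell line, and with 2 libraries per condition the smallest two-sided p of an exact permutation is 0.333.

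Small leucine-rich proteoglycans are secreted proteins whose curved leucine-rich repeat domain binds collagen fibrils and growth factors in connective tissue. OGN (osteoglycin, or mimecan), OMD (osteomodulin, or osteoadherin) and ASPN (asporin) belong to this family and are known from bone, cartilage, tendon and other collagen-rich tissue, and ECM2 encodes a related leucine-rich repeat protein of the extracellular matrix. CENPP is of another kind: it encodes centromere protein P, a subunit of the constitutive centromere-associated network on which kinetochores are built in dividing cells. The name of a proteoglycan cluster therefore fits OGN, OMD and ASPN, and by relation ECM2, but not CENPP.

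The libraries were deep and similar in size. Counts over 1 record per gene came to 57481510 and 64497288 in simulated microgravity, against 60912001 and 62317294 in static control, with a median count per gene of 1983 to 2179, so the 5 genes lie below the median. Libraries of a condition differed by more than sampling noise, with chi-square values per degree of freedom of 22.4 (simulated microgravity) and 19.6 (static control), and each was counted as its own replicate. The labels give no batch.

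The 4 matrix genes are nested in CENPP. In hg19, counted from 1, the record of OGN spans chromosome 9 from 95146249 to 95166937, OMD from 95176527 to 95186836, ASPN from 95218489 to 95244844 and ECM2 from 95257594 to 95298374, all on the minus strand. CENPP spans 95087741 to 95377437 on the plus strand. In the GENCODE annotation of the same build, intron 5 of CENPP runs from 95142142 to 95373595, 231454 bases, and holds all exons of the 4 matrix genes. The gaps between their records are 9.59 kb (OGN to OMD), 31.7 kb (OMD to ASPN) and 12.7 kb (ASPN to ECM2). The records do not touch each other, so no exon of one matrix gene lies in another.

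**Figure D1:**
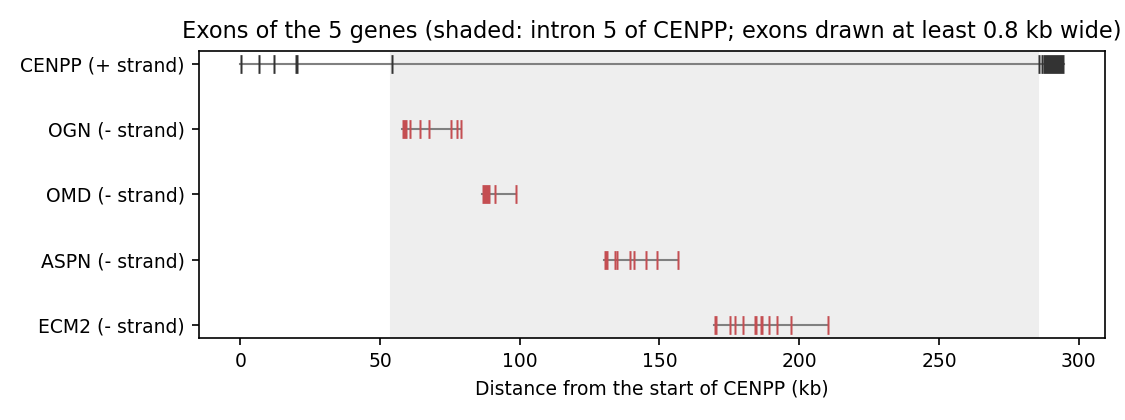
Exons of CENPP and of the 4 matrix genes inside it, by distance from the start of CENPP in kb. Black marks are CENPP exons, red marks are exons of OGN, OMD, ASPN and ECM2, grey lines are introns and the shaded stretch is intron 5 of CENPP, which holds all 4 genes.

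The stretch around each start site is printed as a description of the region. Whether the counted reads came from transcripts begun at these starts was not tested. The sequences are from RefSeq on GRCh38.p14, whose coordinates are not those of hg19, and run 5′ to 3′ on the strand of the gene, from 250 bases before the start to 50 bases after it. CpG dinucleotides are in capitals. An entry was found for 4 of the 5 genes, all but OMD. Where a gene has more than 1 entry, the first is shown.
OGN promoter, chr9:92404529-92404828, minus strand: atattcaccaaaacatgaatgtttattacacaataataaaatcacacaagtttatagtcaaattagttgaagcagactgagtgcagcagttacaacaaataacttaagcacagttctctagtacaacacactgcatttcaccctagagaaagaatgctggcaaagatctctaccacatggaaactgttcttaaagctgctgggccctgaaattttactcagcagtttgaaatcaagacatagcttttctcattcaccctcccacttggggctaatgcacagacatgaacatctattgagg
ASPN promoter, chr9:92482457-92482756, minus strand: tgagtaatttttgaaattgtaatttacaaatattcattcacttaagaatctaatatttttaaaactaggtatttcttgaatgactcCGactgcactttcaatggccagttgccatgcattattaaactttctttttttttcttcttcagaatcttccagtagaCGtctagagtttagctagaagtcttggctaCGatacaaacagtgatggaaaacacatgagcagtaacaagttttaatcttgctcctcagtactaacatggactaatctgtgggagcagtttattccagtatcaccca
ECM2 promoter, chr9:92535941-92536240, minus strand: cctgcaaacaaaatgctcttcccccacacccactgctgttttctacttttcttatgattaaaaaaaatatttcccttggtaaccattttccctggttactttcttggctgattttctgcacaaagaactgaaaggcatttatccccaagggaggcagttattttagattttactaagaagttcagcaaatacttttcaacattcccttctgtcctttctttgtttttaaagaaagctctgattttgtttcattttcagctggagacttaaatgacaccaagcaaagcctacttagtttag
CENPP promoter, chr9:92325218-92325517, plus strand: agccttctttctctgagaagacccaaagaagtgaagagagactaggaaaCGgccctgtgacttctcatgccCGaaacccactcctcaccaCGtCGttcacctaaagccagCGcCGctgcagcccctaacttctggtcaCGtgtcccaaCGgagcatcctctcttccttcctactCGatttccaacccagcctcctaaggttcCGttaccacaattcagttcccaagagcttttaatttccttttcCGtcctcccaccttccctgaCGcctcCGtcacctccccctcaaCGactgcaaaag

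The start regions of the matrix genes were poor in CpG. OGN and ECM2 held 0 CpG in 300 bases, as did 3.96% of the 35116 RefSeq promoters of that length. ASPN held 3 CpG (24.5% of promoters held as few). The first CENPP entry held 14, which is also the median over all promoters, and another CENPP entry, at chr9:92325703-92326002, held 34. GC content was 38.0% for OGN, 34.0% for ASPN, 36.3% for ECM2 and 53.7% for the first CENPP entry, against a median of 58.7%. Motifs of 4 kinds were each searched on their own on both strands. The OGN sequence held TATAAA (found in 11.5% of all promoters), the letters of a TATA box. It also held TGTGGT (13.1%), the core that RUNX factors bind. CENPP also held TGTGGT, while the ASPN and ECM2 sequences held none of the 4 motifs. CCAAT (34.6% of all promoters) and the GC box GGGCGG (45.0%) were in none of the 4 printed sequences. These matches describe letters in a window and not binding.

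All 4 matrix genes had fewer reads in both simulated microgravity libraries than in either static control library. By their fitted log2 fold changes they were 35.5% to 37.6% lower, while CENPP was 8.31% lower. CPM here is a gene's share of the counts over 1 record per gene, scaled to parts per 1000000 and by TMM (trimmed mean of M-values), and log2 fold changes set simulated microgravity over static control in edgeR, with standard errors (SE). OGN had deposited counts of 346 and 369 in simulated microgravity, against 575 and 540 in static control. Its CPM averaged 5.85 ± 0.135 in simulated microgravity and 9.08 ± 0.526 in static control (SD, n = 2 each), and its log2 fold change was -0.63 (SE 0.12). The libraries of a condition lay close together and the conditions did not overlap. OMD, whose product carries keratan sulfate in bone, had the fewest reads, 146 and 157 counts in simulated microgravity against 244 and 235 in static control. Its CPM averaged 2.48 ± 0.0429 in simulated microgravity and 3.90 ± 0.157 in static control (SD, n = 2 each), and its log2 fold change was -0.65 (SE 0.16). The gap between the conditions in OMD was again wider than the spread within them.

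ASPN, whose product binds TGF-beta and collagen and carries a run of aspartates that gave it its name, had 378 and 409 counts in simulated microgravity against 649 and 619 in static control. Its CPM averaged 6.44 ± 0.0832 in simulated microgravity and 10.3 ± 0.486 in static control (SD, n = 2 each), and its log2 fold change was -0.68 (SE 0.11). ECM2 had 479 and 513 counts in simulated microgravity against 819 and 777 in static control. Its CPM averaged 8.12 ± 0.164 in simulated microgravity and 13.0 ± 0.660 in static control (SD, n = 2 each), and its log2 fold change was -0.68 (SE 0.11). In both genes static control replicate 1 was the highest library and simulated microgravity replicate 2 the lowest in CPM, as in OGN and OMD. CENPP, the gene around them, had 881 and 1033 counts in simulated microgravity against 1047 and 1048 in static control. Its CPM was 15.1 and 16.1 in simulated microgravity, against 17.2 and 16.9 in static control, with means of 15.6 ± 0.686 and 17.1 ± 0.220 (SD, n = 2 each) and a log2 fold change of -0.13 (SE 0.09). The CENPP libraries did not overlap between conditions, but replicate 1 of simulated microgravity, and not replicate 2, was the lowest.

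Of the 5 genes, 4 fell at an FDR under 0.1 in edgeR's quasi-likelihood test over all genes (all but CENPP), where 0.867% of the 11415 genes fell, 0.237% rose and 1.1% did either. The CPM of 5 of 5 did not overlap between conditions and was lower in simulated microgravity, against 18.1% of all genes. Since the genes were chosen with this contrast known, nothing is read from either count. Without static control replicate 1, the log2 fold changes were -0.57 for OGN and -0.61 for OMD, and only ASPN and ECM2 passed. Without static control replicate 2, OMD did not pass. In a bulk sample, fewer cells with a transcript and less of it in each cell cannot be told apart. Whether the counts of the 4 matrix genes came from their own transcripts was not tested either.

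**Figure D2:**
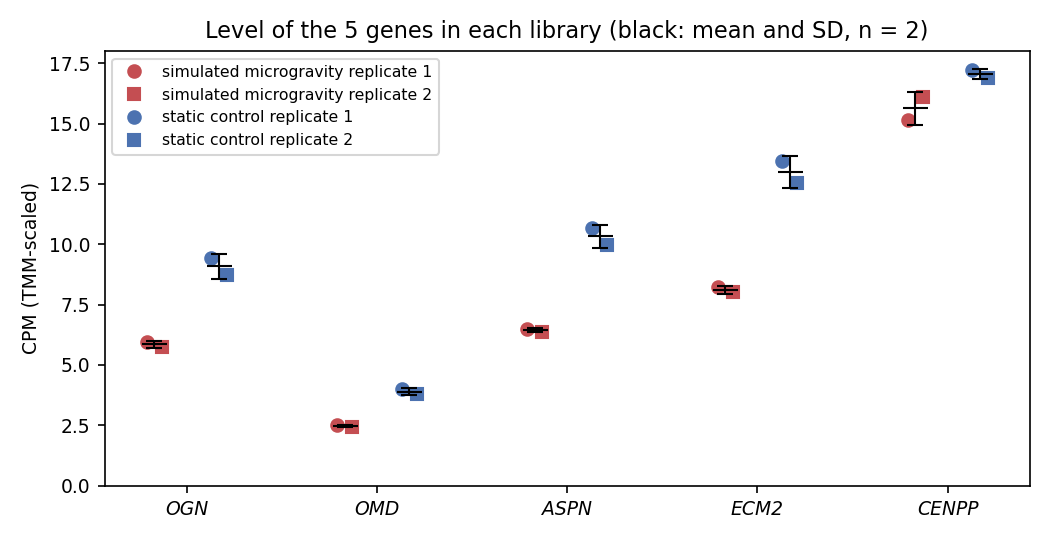
TMM-scaled CPM of the 5 genes in each library, with red for simulated microgravity, blue for static control, circles for replicate 1, squares for replicate 2 and black bars for the mean and SD (n = 2). OGN, OMD, ASPN and ECM2 separate by condition (ECM2 at 8.12 against 13.0 on average), and CENPP, at 15.6 against 17.1, less so.

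The 4 matrix genes kept fixed proportions to each other in every library. Of their summed counts, 1349 and 1448 in simulated microgravity, against 2287 and 2171 in static control, OGN took 25.6% and 25.5% in simulated microgravity against 25.1% and 24.9% in static control. OMD took 10.8% in both simulated microgravity libraries, against 10.7% and 10.8% in static control. The ASPN share was 28.0% and 28.2% in simulated microgravity against 28.4% and 28.5% in static control, and the ECM2 share 35.5% and 35.4% against 35.8% in both static control libraries. Each share lay inside the 95% Wilson interval of the same gene in every other library. For OGN in simulated microgravity replicate 1, for example, that interval runs from 23.4% to 28.0%. Such intervals cover counting error only. The sum of the 4 was 1.53 and 1.40 times the CENPP count in simulated microgravity, against 2.18 and 2.07 times in static control.

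These proportions are those of the number of exons. OMD has 3 exons in the annotation, OGN 7, ASPN 8 and ECM2 10. Divided by these numbers, the counts of simulated microgravity replicate 1 gave 48.7 per exon for OMD, 49.4 for OGN, 47.3 for ASPN and 47.9 for ECM2. In simulated microgravity replicate 2 the counts per exon were 52.3 for OMD, 52.7 for OGN, 51.1 for ASPN and 51.3 for ECM2. Within a library, genes with 3 to 10 exons of very different lengths thus had almost the same count per exon. Static control replicate 1 had 81.3 per exon for OMD, 82.1 for OGN, 81.1 for ASPN and 81.9 for ECM2. Static control replicate 2 had 78.3 for OMD, 77.1 for OGN, 77.4 for ASPN and 77.7 for ECM2. The highest of the 4 values was 1.05 and 1.03 times the lowest in the simulated microgravity libraries and 1.01 and 1.02 times in the static control libraries. CENPP, with 8 exons, did not share the number: it had 110 and 129 counts per exon in simulated microgravity and 131 in each static control library.

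One whole number per library therefore describes the counts of all 4 genes. Taken as the lowest count per exon among the 4 genes, rounded down, this common count was 47 and 51 in simulated microgravity, against 81 and 77 in static control. The common count times the 28 exons made up 97.6% and 98.6% of the summed counts in simulated microgravity, against 99.2% and 99.3% in static control. What was left over per gene was small. OGN kept the most in simulated microgravity, 17 and 12 counts, against 8 and 1 in static control. ECM2 kept 9 and 3 counts in simulated microgravity against 9 and 7 in static control, and OMD kept 5 and 4 counts against 1 and 4. In ASPN, 2 and 1 counts were left over in simulated microgravity, against 1 and 3 in static control. The left-over counts depend on how the common count was set, since the gene with the lowest count per exon keeps fewer counts than it has exons. Nothing is therefore read from how they differ between conditions.

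**Figure D3:**
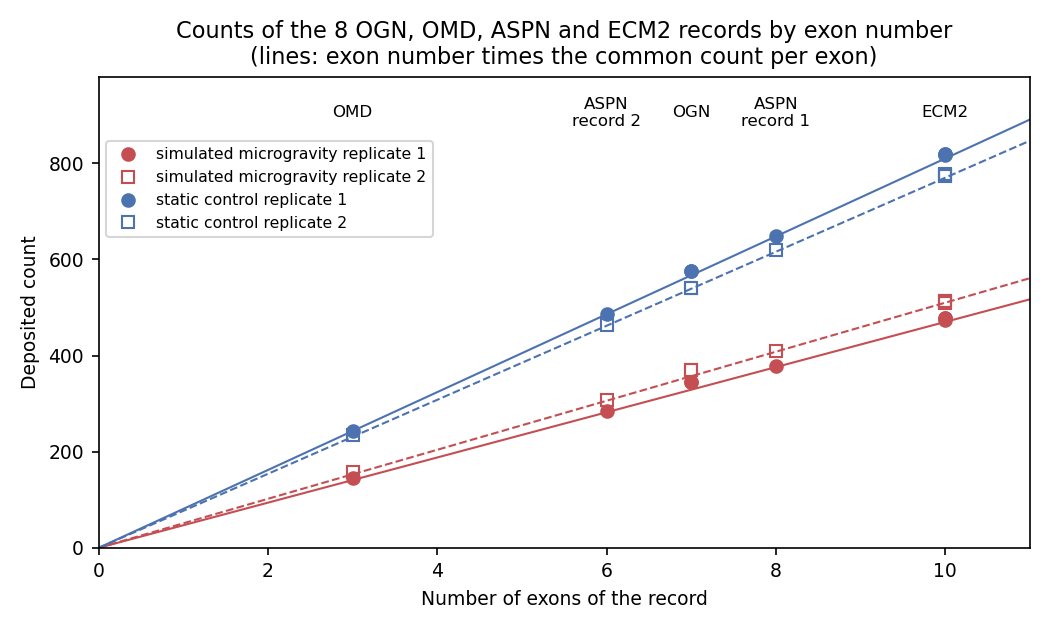
Deposited count of the 8 records of OGN, OMD, ASPN and ECM2 against the exon number of the matched transcript, in the 4 libraries. Red is simulated microgravity, blue is static control, filled circles are replicate 1 and open squares are replicate 2. Each line is the exon number times the common count of that library, 47 and 51 in simulated microgravity, against 81 and 77 in static control, and the points lie on or just above the lines.

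The separate RefSeq records of a gene followed the same number. ASPN has a record of 8 exons and another that was matched to a transcript of 6 exons, which lacks exons at 95221914 to 95222052 and at 95222756 to 95222849. The 6-exon record had 284 and 307 counts in simulated microgravity, against 487 and 464 in static control. It was short of the longer record by 94 and 102 counts in simulated microgravity and by 162 and 155 in static control, or 24.9% in both simulated microgravity libraries and 25.0% in both static control libraries. That is the share of 2 exons in 8, and per exon it lies within 1 count of the common count of each library. The annotation does not carry RefSeq names, so these records were matched by their span and the order of their counts. Both OGN records have the same span, were matched to the same transcript of 7 exons and had identical counts, so they give no separate check. The 3 ECM2 records were matched to transcripts of 10 exons each, 2 of them to the same transcript. The other record ends in a different last exon, of 596 against 1169 bases, on a separate stretch of the chromosome. Yet its counts differed from those of the record kept for ECM2 by only 4 and 3 in simulated microgravity, against 1 and 4 in static control. The ECM2 count hardly changed with the length and place of the last exon.

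The counts of the 4 genes were thus not 4 separate measurements of a library. As TMM-scaled CPM, the common count was 0.808 and 0.796 in simulated microgravity, against 1.33 and 1.24 in static control, with means of 0.802 ± 0.00874 and 1.29 ± 0.0635 (SD, n = 2 each) and a log2 ratio of -0.68. The replicates were close and the conditions did not overlap. Taken as single reads, however, the counts are low: the exact Poisson 95% interval of 47 runs from 34.5 to 62.5 and that of 51 from 38.0 to 67.1 in simulated microgravity, against 64.3 to 101 for 81 and 60.8 to 96.2 for 77 in static control. The intervals of both simulated microgravity libraries overlap that of static control replicate 2. These are intervals of counts not scaled by library size, and their overlap is not a test of the conditions. Summed over the libraries of a condition, the common count was 98 in simulated microgravity against 158 in static control. With the counts of the 4 genes divided by their exon numbers, a step chosen after the data had been seen, their log2 fold changes were -0.63 for OGN, -0.65 for OMD and -0.68 for ASPN and ECM2. In that fit 0 of the 4 passed in edgeR's quasi-likelihood test, where 0.99% of all genes passed, and DESeq2 called 0. All 4 had an unadjusted p under 0.05 in edgeR and were lower in simulated microgravity, as were 4.66% of all genes, and since the genes were chosen with the contrast known, nothing is read from these counts. The alignments were not analysed here, how a read spliced across several exons or across a nested gene was assigned is not given in the sources used here, and its part in the counts was not tested. The sources do not state a strand-specific library, so reads from CENPP and from the genes on the opposite strand inside it cannot be told apart.

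Other genes nested in 1 host gene gave a point of comparison. Introns of at least 20 kb held 242 listed genes. Apart from the matrix genes, a gene was used only if all annotated transcripts near its record had the same number of exons. Near means that the ends differed by at most 300 bases in total. After this filter, 4 host genes held several listed genes of more than 1 exon inside them. In NF1, EVI2B had 4.13 to 5.42 times the count per exon of EVI2A over the 4 libraries, and in MARK4 the counts per exon of BLOC1S3 and PPP1R37 differed 2.60 to 3.49 times. In CASK, the receptor genes GPR34 and GPR82, with 3 exons each, were as close as the matrix genes of CENPP: GPR34 had 175 and 202 counts in simulated microgravity against 226 and 203 in static control, and GPR82 had 181 and 202 against 237 and 205. The counts per exon thus lay within 1.05 times of each other in CENPP and in CASK and further apart in NF1 and MARK4. Since both CASK genes have 3 exons, they do not show whether counts follow exon number there. An intron of any annotated transcript of the host was accepted, and genes of 1 host need not share an intron. The comparison is therefore looser than that among the matrix genes in intron 5 of CENPP.

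Per length, the order of the levels was the same in both conditions. Exon length came from the matched transcript, cut to the span of the record. The ends of transcript and record differed by 5868 bases in CENPP and 1948 in OMD. The cut kept 2919 of 8293 exon bases in CENPP and 2459 of 4324 in OMD, so the levels per kb of these genes rest on it. CENPP had 5.35 ± 0.235 CPM per kb of exon in simulated microgravity and 5.84 ± 0.0755 in static control (SD, n = 2 each). ASPN came next with 2.61 ± 0.0337 in simulated microgravity and 4.18 ± 0.197 in static control, and ECM2 had 2.55 ± 0.0514 and 4.08 ± 0.207. The libraries of ASPN and ECM2 overlapped in both conditions, and the other steps in the order were wider than the spread. OGN had 1.97 ± 0.0456 CPM per kb in simulated microgravity and 3.06 ± 0.177 in static control. OMD was lowest with 1.01 ± 0.0174 in simulated microgravity and 1.59 ± 0.0637 in static control. Among the 4 matrix genes this order, too, divides counts that follow exon number by exon length, so those with short exons stand higher in it.

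No listed gene around CENPP passed the test. Of 18 listed genes within 1 Mb of the cluster, 6 on the left and 12 on the right, 0 fell and 0 rose in edgeR's quasi-likelihood test, 0 had an unadjusted p under 0.05, DESeq2 called 0, and the smallest adjusted p was 0.749. Their log2 fold changes ran from -0.10 in NINJ1 to 0.24 in C9orf89, with a median of 0.06, against a median of -0.67 for the 4 matrix genes and 0.00 for all genes tested. Of the 18, 0 were lower and 10 higher in simulated microgravity without overlap in CPM, against 18.1% and 17.9% of all genes. The 10 include IARS and, within it, SNORA84 and MIR3651, whose counts were identical, so they are not 10 separate measurements. NOL8, a nucleolar protein gene that overlaps the start of CENPP on the other strand, had 119 and 121 CPM in simulated microgravity against 116 and 119 in static control, or 0.03 on the log2 scale (edgeR quasi-likelihood, adjusted p = 0.983). IPPK, an inositol phosphate kinase gene that overlaps the end of CENPP, had 22.8 and 21.0 CPM against 21.8 and 20.2, a log2 fold change of 0.06 (edgeR quasi-likelihood, adjusted p = 0.967). NOL8 and IPPK can each share reads with CENPP where they overlap.

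The next genes outward lay between -0.07 and 0.12. On the left, IARS, the cytosolic isoleucyl-tRNA synthetase gene, had a log2 fold change of 0.11 (edgeR quasi-likelihood, adjusted p = 0.854). The small RNA records SNORA84 and MIR3651 lie within IARS and had the same counts as each other, 488 and 598 in simulated microgravity, against 495 and 505 in static control, with a log2 fold change of 0.12 (edgeR quasi-likelihood, adjusted p = 0.905). On the right, LOC100128361 had a log2 fold change of -0.07 (edgeR quasi-likelihood, adjusted p = 0.988) and BICD2, an adaptor gene of the dynein motor, of 0.04 (edgeR quasi-likelihood, adjusted p = 0.980). LOC100128361, from 95380332 to 95382817 on the plus strand, lies beyond the CENPP record, which ends at 95377437. It does overlap the last exon of the annotated transcript matched to CENPP, which runs from 95375301 to 95382811. It may thus not be separate from CENPP.

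**Figure D4:**
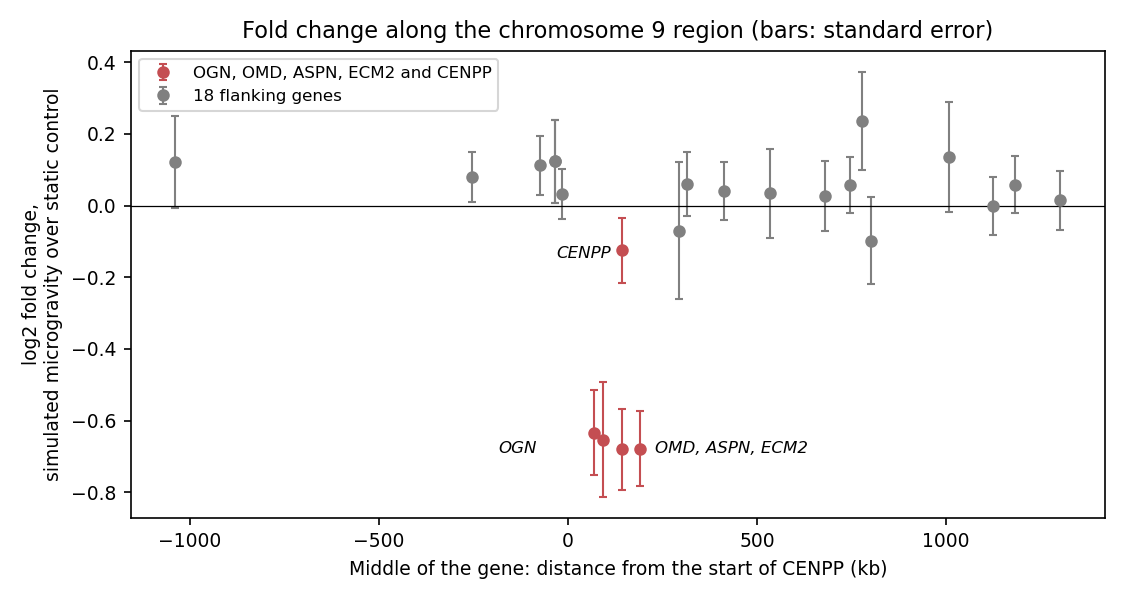
Log2 fold change (simulated microgravity over static control) with its standard error, for the 5 genes (red) and 18 flanking genes (grey), by distance of the middle of the gene from the start of CENPP in kb. OGN, OMD, ASPN and ECM2 lie at -0.63 to -0.68, CENPP at -0.13 and the flanking genes between -0.10 and 0.24.

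Most relatives of the cluster were not among the listed genes, which are those above 1 CPM in at least 1 library. Of 14 other small leucine-rich proteoglycan genes, only CHAD (chondroadherin, a cartilage protein) was listed, while decorin, lumican, biglycan and fibromodulin, among others, were not. CHAD had 400 and 328 counts in simulated microgravity against 321 and 298 in static control, or 0.25 on the log2 scale (edgeR quasi-likelihood, adjusted p = 0.782), and it lies in an intron of ACSF2 on the opposite strand. Of 19 fibroblast and osteoblast markers, 3 were listed, ACTA2, COL1A1 and PRRX1, with a summed level of 55.7 to 58.0 CPM in simulated microgravity and 53.8 to 54.4 CPM in static control. RUNX2, SP7, IBSP and BGLAP, which define bone-forming cells, were not listed. Of 14 B cell markers, 13 were listed, with summed levels of 3706 to 3901 CPM in simulated microgravity and 3685 to 3823 CPM in static control. Of 12 T cell markers 0 were listed, and of 11 myeloid markers 3, with summed levels of 30.8 to 31.6 CPM in simulated microgravity and 28.8 to 31.7 CPM in static control. In edgeR's quasi-likelihood test 0 markers of these lists passed, with an unadjusted p under 0.05 in 1 fibroblast and osteoblast marker, 2 B cell markers and 0 myeloid markers, and DESeq2 called 1 B cell marker. The libraries thus carry the B cell markers of the labelled line, and the part of other cells in the counts of the 4 genes was not tested.

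The partners of CENPP at the centromere did not pass the test. The list of 16 measured genes holds CENPA and subunits of the constitutive centromere-associated network other than CENPP, 4 of them under older symbols. In it 0 rose and 0 fell in edgeR's quasi-likelihood test, with 0 at an unadjusted p under 0.05 and 0 called by DESeq2. Their median log2 fold change was 0.02, against 0.00 over all genes. CENPA, the histone H3 variant that marks centromeres, had a log2 fold change of 0.16 (edgeR quasi-likelihood, adjusted p = 0.696), CENPQ of 0.12 (0.866), CENPL of 0.10 (0.897) and CENPW of -0.08 (edgeR quasi-likelihood, adjusted p = 0.937). CENPP, at -0.13, was below the lowest of the 16.

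Few genes of the pathways in which the matrix genes take part passed the test. Of 24 measured genes of TGF-beta and BMP signalling, whose ligands ASPN and related proteoglycans can bind, 1 rose, 0 fell and 23 did not pass in edgeR's quasi-likelihood test, 4 had an unadjusted p under 0.05 and DESeq2 called 1, with a median log2 fold change of 0.00. The gene that rose was ID3, an inhibitor of helix-loop-helix factors and a BMP target, with 70.3 and 63.1 CPM in simulated microgravity against 55.0 and 49.7 in static control, or 0.35 on the log2 scale (edgeR quasi-likelihood, adjusted p = 0.0703). It did not pass at an FDR under 0.05, or without either static control replicate. SMAD3 had a log2 fold change of -0.28 (edgeR quasi-likelihood, adjusted p = 0.271), the ligand gene TGFB1 of -0.22 (0.332) and the receptor gene ACVR2A of 0.30 (edgeR quasi-likelihood, adjusted p = 0.407). Of 9 measured genes of collagens and matrix assembly, 0 passed, 0 had an unadjusted p under 0.05 and DESeq2 called 0. Their median log2 fold change was 0.04, with COL5A2 at 0.37 (adjusted p = 0.750), FBN1 at 0.20 (0.753), COL1A1 at -0.17 (0.854) and PCOLCE at -0.20 (edgeR quasi-likelihood, adjusted p = 0.892). Of 11 measured genes of keratan sulfate synthesis, the sugar chain that OMD and OGN can carry, 0 passed in edgeR's quasi-likelihood test, 2 had an unadjusted p under 0.05 and DESeq2 called 0. Those with the smallest p were the sialyltransferase gene ST3GAL1 at -0.31 (adjusted p = 0.117), the chain-extending enzyme gene B3GNT2 at 0.30 (0.150), B4GALT3 at 0.16 (0.663) and ST3GAL3 at -0.18 (edgeR quasi-likelihood, adjusted p = 0.792), and the median was 0.03.

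The genes with the most similar profile over the 4 libraries lay on other chromosomes. Likeness was taken as the Euclidean distance between log2 CPM values, centred per gene, and the mean profile of the 4 matrix genes, over 11410 genes, and it selects genes that were lower in simulated microgravity. The nearest was WDR65 (distance 0.0416), a WD repeat gene on chromosome 1, with 173 and 180 counts in simulated microgravity against 295 and 276 in static control. It was followed by the noncoding LHFPL3-AS2 (0.0745), CD101 (0.105), which encodes an immunoglobulin-like membrane protein of leukocytes, the noncoding LOC729737 (0.125) and LHFPL3 (0.131). LHFPL3 and LHFPL3-AS2 overlap on opposite strands of chromosome 7, where their reads cannot be told apart. None of the 5 lies in an intron of at least 20 kb of another listed gene. Listing needs more than 1 CPM in only 1 library, so a gene of low count can be listed through static control alone. This may hold for CD101, with 92 and 91 counts in simulated microgravity against 147 and 149 in static control. It may also hold for LOC729737, with 76 and 77 against 130 and 111.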

How the data were processed

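RNA was sequenced from TK6 cells after 48 hours in simulated microgravity or static control, 2 libraries each. The authors isolated RNA with the RNA-STAT-60 reagent, mapped the reads to hg19 with TopHat, and used Bamutils to drop reads that mapped to several places and to count those on known genes. For the aligner, the processing notes give TopHat2 2.0.8 while the published methods give a different TopHat version. The deposited counts are whole numbers for 22375 RefSeq records, not normalized, and a read can be counted in several records of 1 gene. The authors' deposited CPM values select the table, since every record exceeds 1 CPM in at least 1 library. The authors also deposited log2 fold changes and mean log2 CPM, with the p-values and FDR of their own comparison, which were not used.

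For each of 11415 symbols the record with the highest mean count was kept (4944 symbols have more than 1). The counts were fitted in R 4.3.3 with edgeR 4.0.16 (TMM, filterByExpr, which removed 0 records, and the quasi-likelihood test), with Benjamini-Hochberg adjustment over all genes and an FDR under 0.1. TMM factors were 0.994 to 1.01 and the biological coefficient of variation was 6.77%. Total counts over all records were 112609031 to 126368530 per library. DESeq2 1.42.0, other scalings and filters, a replicate block and leaving out each library were tried as alternatives.

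Exon numbers came from GENCODE on GRCh37, the build of the files. Listed starts count from 0 (start plus 1 matched GENCODE for 10591 of 22375 records, against 1180 as listed), so 1 was added. Promoters came from RefSeq on GRCh38.p14. Named genes are the 5 members, the 3 nearest flanking genes on each side with any past the FDR, up to 4 genes of each list with the smallest p, and the 5 genes nearest in profile with a mean count of at least 50. The members and lists were chosen with earlier results of these data known.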

Additional observations from a re-analysis of the deposited data

How the results depend on the processing

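The log2 fold changes of the 5 genes stayed negative in 14 of 14 alternatives each. With each library left out in turn they ran from -0.69 to -0.57 for OGN, -0.69 to -0.61 for OMD, -0.73 to -0.63 for ASPN and for ECM2, and -0.17 to -0.08 for CENPP. In those fits the single library left is taken to vary as much as the other condition, 2 (without static control replicate 1) to 4 of the 5 genes passed, and the number of genes that changed ran from 70 to 877, with 59 to 592 that fell and 11 to 285 that rose, against 126, 99 and 27 with all libraries. The lists then held 0 to 2 genes past the FDR for TGF-beta and BMP signalling and for B cell markers, 0 to 3 for keratan sulfate synthesis and for collagens and matrix assembly, and 0 to 1 for fibroblast and osteoblast and for myeloid markers. At an FDR under 0.05, 17 genes rose, 3 of the 5 genes passed (not OMD) and 0 genes of TGF-beta and BMP signalling did. OMD was also not called with library sizes instead of TMM or by DESeq2, and 1 B cell marker passed in each of these. Of keratan sulfate synthesis, 1 gene passed with a mean of at least 100 counts and 1 with all records tested. Dividing the counts of OGN, OMD, ASPN and ECM2 by their exon numbers, chosen after seeing the data, left 0 of the 5 genes past the FDR at nearly the same log2 fold changes (-0.63, -0.65, -0.68 and -0.68). The causes of these changes were not tested. The correlation of deviations between same-numbered libraries was 0.0802. With 2 libraries per condition this is a single value, and it cannot show whether the libraries were paired. With the replicate number as a block, 96 genes changed, 72 of which fell and 24 rose, and OGN, ASPN and ECM2 passed. At 47 to 81 reads per exon, counting error limits the common count.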
